A study of Mus musculus with 2 samples.

Results

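The mRNA levels of 9 kinases of the p38 MAPK, ERK and JNK cascades were examined in macrophages with and without tristetraprolin (TTP, gene name *Zfp36*). The genes were selected by symbol from the deposited expression table, which holds 37451 Ensembl genes, and all 9 were found. They are *Mapk14* (p38α), its activating kinases *Map2k3* (MKK3) and *Map2k6* (MKK6), its downstream kinases *Mapkapk2* (MK2) and *Mapkapk3* (MK3), the kinase *Map3k8* (TPL2), *Map2k1* (MEK1), *Mapk3* (ERK1) and *Mapk8* (JNK1). The study compared 1 library of WT bone marrow-derived macrophages (BMDMs) from C57BL/6 mice with 1 library of ΔM BMDMs from TTP fl/fl LysMCre mice on the same background. In ΔM mice, Cre recombinase made from the lysozyme M locus deletes *Zfp36* in myeloid cells. WT animals were littermates, and mice of both genotypes were 7 to 9 weeks old. BMDMs of both genotypes were grown with CSF-1, labeled with 100 μM 4-thiouridine for 16 h and then stimulated with 10 ng/ml LPS for 6 h, so no unstimulated cells are part of the comparison. The time of 6 h is that of the protocol, and the library titles end in LPS7, a suffix the labels do not explain. Values are FPKMs, that is, fragments scaled to exon length and to the mapped fragments of the library, and can therefore be set side by side between genes. With 1 library per genotype there is no replicate check of any difference and no p-value is given.

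MAP kinase cascades relay signals from receptors such as TLR4, which senses LPS, through a kinase of the MAP3K tier, a kinase of the MAP2K tier and the MAP kinase itself. In macrophages, p38 activates MK2, and TTP is a substrate of MK2. TTP that carries these phosphates accumulates in the cell but promotes mRNA decay poorly. TPL2 is the MAP3K through which TLR4 reaches MEK1 and ERK.

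The targeted gene *Zfp36* reached 65.3 FPKM in WT against 16.7 FPKM in ΔM BMDMs. Depth was estimated from the steps between low FPKMs, which are whole multiples of what 1 fragment is worth, and came to about 37100000 fragments for WT against 32900000 for ΔM (1.13-fold). The 10 macrophage markers examined were present in both libraries, from 2.15 FPKM upwards, and the 8 LPS-induced genes examined were all at 9.93 FPKM or more. Of the 42 markers of other cell types, 41 were below 1 FPKM in both libraries and 12 were at 0 in both. Their summed level was 12.5 FPKM for WT against 13.4 FPKM for ΔM, most of it from *Lck*, a Src-family kinase of T cells, at 9.58 and 10.8 FPKM, while *Cd3e* and *Cd3g*, which define T cells, were listed at 0 in both libraries. The macrophage marker *Lyz2*, the lysozyme M gene itself, was at 2481 FPKM in WT against 1356 FPKM in ΔM. Whether any of these differences has a part in the values of the kinases was not tested.

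TTP binds AU-rich elements, so the annotated 3′ UTRs of the 9 kinases were searched on the sense strand for the heptamer UAUUUAU and for the pentamer AUUUA, which lies inside the heptamer. The matches are given in the DNA letters of the NCBIM37 (mm9) annotation, with the motif in capitals, to set the heptamer of *Map2k1* and the single pentamers of the p38 and MK2 transcripts beside the sites of *Zfp36*. Coordinates span each printed window, which holds up to 10 nt of flank on either side of the motif. Of the 9 UTRs, 1 held the heptamer, and it was that of *Map2k1* (chr9:64033853-64033879, minus strand), at nt 623 of the UTR. Of all 19988 annotated 3′ UTRs, 1 per gene, 23.8% held it, and of those within 20% of the length of the *Map2k1* UTR (915 nt), 22.0% did. *Mapkapk2* had a single pentamer close to the end of its UTR of 1388 nt (chr1:132950281-132950301, minus strand), and *Mapk14* had a single one in 2066 nt (chr17:28884803-28884827, plus strand). The UTR of *Zfp36*, shown for comparison, held 3 heptamers in 774 nt (first window chr7:29161986-29162012, second window chr7:29161971-29161997, last window chr7:29161946-29161972, minus strand).
Map2k1 heptamer: tgtatttctaTATTTATttttaaatat
Mapkapk2 pentamer: tactaaacaaATTTAatagtt
Mapk14 pentamer: aaggacccatATTTAagctttgtgt
Zfp36 first heptamer: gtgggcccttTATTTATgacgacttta
Zfp36 second heptamer: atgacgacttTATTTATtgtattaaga
Zfp36 last heptamer: gattttatagTATTTATatatattggg

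The pentamer was found in 6 of the 9 UTRs and in 60.5% of all annotated 3′ UTRs. Beyond the sites above there were 2 in *Map2k6*, 4 in *Map3k8* (979 nt) and 7 in *Mapk8* (4410 nt). The UTRs of *Mapkapk3* (1256 nt), *Map2k3* (964 nt) and *Mapk3* (612 nt) held 0. Of UTRs within 20% of the length of each, 80.4%, 73.0% and 56.0% held the pentamer. For UTRs that held it, the like share was 90.7% for *Mapk14*, 82.6% for *Mapkapk2* and 70.0% for *Map2k1*. It was 70.1% for *Map2k6*, 73.4% for *Map3k8* and 98.7% for *Mapk8*. A match is a description of the annotated sequence and not a measurement of binding.

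In the p38 arm, the MK2, MK3 and MKK3 transcripts were lower in ΔM than in WT BMDMs by less than 1.5-fold, and that of p38α was nearly level. *Mapkapk2* (chromosome 1, 132950281 to 132994144, minus strand, mm9), which encodes MK2, was by far the most abundant of the 9 mRNAs. It reached 207.6 FPKM in WT against 149 FPKM in ΔM, on about 18411 and 11719 fragments. The ratio of ΔM to WT was 0.718, with a 95% counting interval from 0.701 to 0.735. This interval and those below cover counting error only, not the spread between mice, and rest on the estimated depth and the median annotated transcript length. *Mapkapk3* (chromosome 9, 107157258 to 107192208, minus strand) encodes MK3, a close relative of MK2 with overlapping substrates. Its level was 6.98 FPKM in WT against 4.73 FPKM in ΔM, on about 160 and 96 fragments, and the ratio was 0.678 (0.520 to 0.877). The MK2 and MK3 transcripts were thus lower in ΔM by a similar factor, although their levels differed 29.7-fold in WT and 31.5-fold in ΔM.

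*Map2k3* (chromosome 11, 60745535 to 60766313, plus strand) encodes MKK3, which phosphorylates p38. Its level was 10.03 FPKM in WT against 7.92 FPKM in ΔM, on about 305 and 213 fragments, and the ratio was 0.790 (0.658 to 0.941). The second p38-activating kinase, *Map2k6* (chromosome 11, 110260436 to 110386836, plus strand), was listed at 0.03 FPKM for WT and at 0 for ΔM. These values stand for about 2 and 0 fragments, under the floor of 3 fragments set here, so no ΔM to WT ratio with a counting interval is given. *Mapk14* (chromosome 17, 28828287 to 28885349, plus strand) encodes p38α, to which both MKKs as well as MK2 and MK3 connect. It reached 18.7 FPKM in WT against 17.8 FPKM in ΔM, on about 2043 and 1729 fragments, and its ratio of 0.954 had a counting interval (0.895 to 1.02) that holds 1. In WT BMDMs the MK2 transcript was 11.1 times as abundant as that of p38α, and in ΔM BMDMs 8.36 times.

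Of the 3 selected kinases of the ERK arm, *Map2k1* was lower in ΔM, *Mapk3* was higher, and the counting interval of *Map3k8* held 1. *Map3k8* (chromosome 18, 4331325 to 4353013, minus strand), at the top of this arm, reached 28.5 FPKM in WT against 29.5 FPKM in ΔM, on about 1955 and 1794 fragments, and its ratio of 1.03 had an interval (0.970 to 1.10) that holds 1. *Map2k1* (chromosome 9, 64033577 to 64101438, minus strand), the gene with the heptamer, encodes a kinase that phosphorylates ERK. It reached 87.5 FPKM in WT against 81.3 FPKM in ΔM, on about 1835 and 1511 fragments, and the ratio was 0.929 (0.867 to 0.995). It was the second most abundant of the 9 transcripts. *Mapk3* (chromosome 7, 133903115 to 133909333, plus strand) was the member with the highest ratio. Its level was 4.70 FPKM in WT against 5.87 FPKM in ΔM, on about 186 and 206 fragments, and the ratio was 1.25 (1.02 to 1.53).

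*Mapk8* (chromosome 14, 34191084 to 34260344, minus strand) stands for the JNK arm. JNK1 phosphorylates c-Jun and other transcription factors in stressed or stimulated cells. The level was 2.91 FPKM in WT against 2.36 FPKM in ΔM, on about 143 and 103 fragments, and the ratio of 0.811 had an interval (0.624 to 1.05) that holds 1. With the longest annotated transcript of 5756 nt in place of the median of 1528 nt, more fragments were assigned to *Mapk8* and its interval (0.714 to 0.918) no longer held 1. In total RNA from a culture, fewer cells with a transcript and less of it per cell cannot be told apart.

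**Figure D1:**
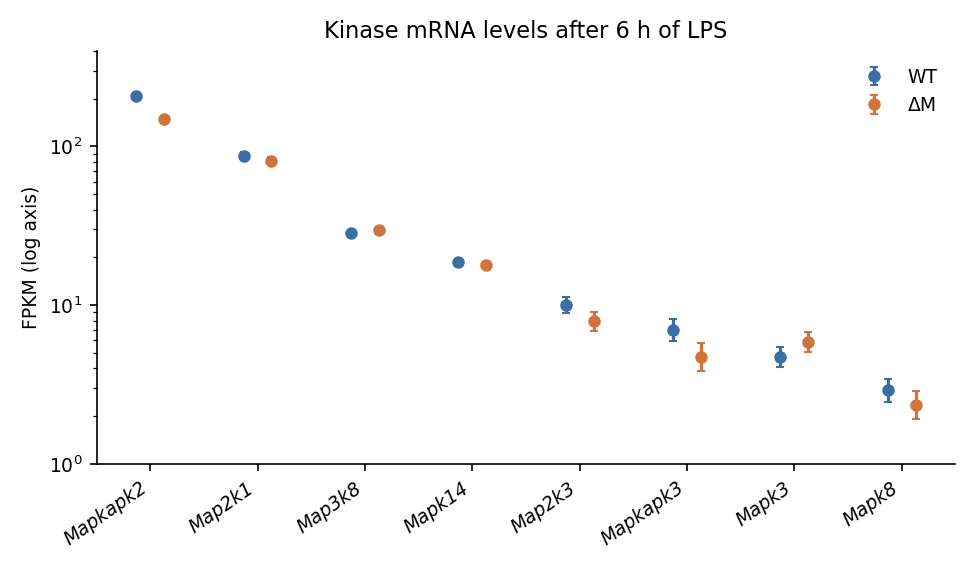
FPKM (log axis) of the 8 kinases above 1 FPKM in the WT and ΔM libraries, ordered by the WT level, with 95% counting intervals as bars. *Mapkapk2* is highest at 207.6 and 149 FPKM and *Mapk8* lowest at 2.91 and 2.36 FPKM, and *Map2k6*, at 0.03 and 0, is not drawn.

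The order of the levels was the same in both libraries except for one exchange. In WT, it ran from *Mapkapk2* over *Map2k1*, *Map3k8*, *Mapk14*, *Map2k3*, *Mapkapk3*, *Mapk3* and *Mapk8* to *Map2k6*, and the counting intervals of no neighbours overlapped. In ΔM, *Mapk3* was above *Mapkapk3*, at 5.87 against 4.73 FPKM, and the intervals of these neighbours overlapped (5.10 to 6.73 and 3.83 to 5.78 FPKM). That step, 1.24-fold, was also the smallest between neighbours in either library, and among the 8 kinases above 1 FPKM the largest was the 3.07-fold step from *Map2k1* to *Map3k8* in WT.

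Log2 ratios were then calculated after adding 1 FPKM to each value, which understates differences of low genes, keeping genes whose mean over both libraries was 1 FPKM or more. Of the 9 kinases 8 passed this minimum, and *Map2k6* did not. None of the 8 differed by at least 1.5-fold. Among all 10765 genes above the minimum, 18.7% did (11.2% higher and 7.51% lower in ΔM), and among the 8078 protein-coding genes 10.2% did (4.82% higher and 5.36% lower), so a count of 0 among 8 genes is near the background. At 2-fold, the count was again 0, against 9.31% of all genes (5.69% higher and 3.61% lower). Of the 8078 protein-coding genes, 203 passed 2-fold (96 higher and 107 lower in ΔM), so this 0 is also near the background. The log2 ratio was -0.48 for *Mapkapk3*, -0.48 for *Mapkapk2*, -0.31 for *Map2k3*, -0.22 for *Mapk8*, -0.11 for *Map2k1*, -0.06 for *Mapk14*, 0.05 for *Map3k8* and 0.27 for *Mapk3*. Thus 6 of the 8 were lower and 2 higher in ΔM. Of all genes above the minimum, 46.2% had a log2 ratio of 0 or less. With the median transcript length, the counting intervals of *Mapk14*, *Mapk8* and *Map3k8* held 1. The median of the 8 kinases was -0.16, against 0.03 for all genes and -0.00148 for protein-coding genes. Restricted to the kinases averaging 10 FPKM or more, the median was -0.08. With *Map2k6* included, at a log2 ratio of -0.04 that rests on about 2 and 0 fragments, the median was -0.11.

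The place of each kinase among the protein-coding genes shows how common such differences were. A log2 ratio at or below that of *Mapkapk2* was found for 8.02% of the protein-coding genes, and one at or below that of *Mapkapk3* for 7.94%. For *Map2k3* the share was 15.7%. A log2 ratio at or above that of *Mapk3* was found for 17.6%. The counting interval of the ratio left out 1 for 5 of the 8 kinases, 4 of them lower in ΔM (*Mapkapk2*, *Mapkapk3*, *Map2k3* and *Map2k1*) and 1 higher (*Mapk3*). The same held for 50.9% of the protein-coding genes (24.4% higher and 26.5% lower), which is the background for this count. With the longest transcripts, the count was 6 of 8, of which 5 were lower and 1 higher, against 61.4% of the protein-coding genes (29.6% higher and 31.8% lower). Differences beyond counting error were therefore common between these 2 libraries.

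**Figure D2:**
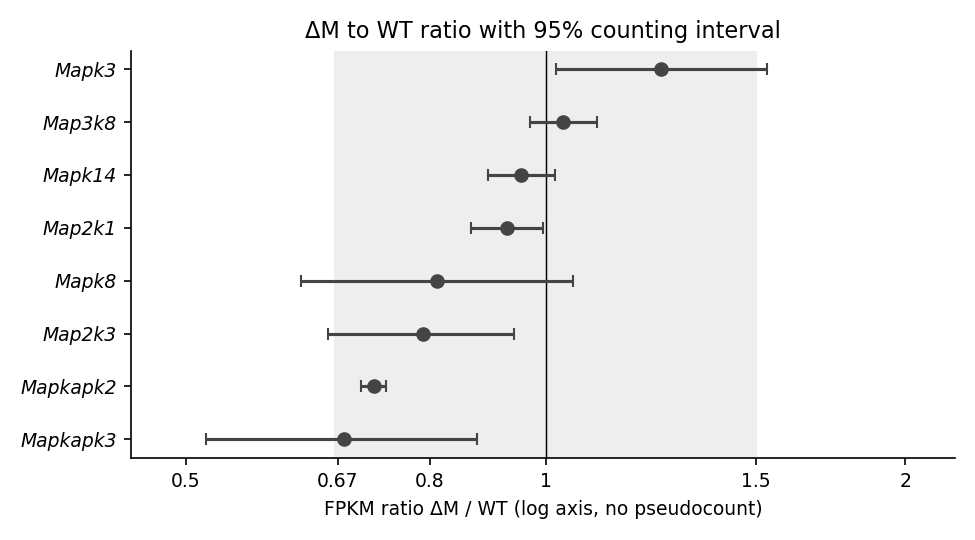
Ratio of ΔM to WT FPKM (log axis, no pseudocount) for the 8 kinases, with the 95% counting interval as a bar, a line at 1 and grey shading up to 1.5-fold in either direction. The intervals of *Mapk14*, *Map3k8* and *Mapk8* cross 1, the narrow interval of *Mapkapk2* lies between 0.701 and 0.735, and all 8 points lie within the shading.

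Most of these kinases belong to small families of paralogs that can act on the same substrates, so the share of each in the summed FPKM of its family was calculated. The p38 family was made up almost entirely of *Mapk14*, with 95.4% of the sum in WT and 93.1% in ΔM. *Mapk11* (p38β) was at 0.78 and 1.30 FPKM, and *Mapk12* and *Mapk13* were at 0.09 FPKM or less in both libraries. Likewise *Map2k3* held 99.7% of the summed *Map2k3* and *Map2k6* level in WT. *Map2k4* (MKK4), which activates JNK and can also act on p38, reached 84.9 FPKM in WT against 94.8 FPKM in ΔM, 8.47 and 12 times the level of *Map2k3*.

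In the JNK family, the selected kinase was the minor one in BMDMs. *Mapk8* held 20.5% of the JNK sum in WT and 15.8% in ΔM, with *Mapk9* (JNK2) at 11.3 and 12.5 FPKM and *Mapk10* (JNK3) at 0.03 FPKM in both. The JNK sums themselves were close, at 14.2 FPKM for WT and 14.9 FPKM for ΔM. *Map2k1* was the major MEK, with 78.2% of the sum in WT and 75.4% in ΔM, and *Map2k2* (MEK2) was at 24.4 and 26.5 FPKM.

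Among the MAPKAP kinases, *Mapkapk2* held 82.4% of the sum in WT and 78.7% in ΔM, and *Mapkapk3* held 2.77% and 2.50%. *Mapkapk5* (MK5), the remaining paralog, had 37.3 FPKM in WT against 35.5 FPKM in ΔM and a log2 ratio of -0.07. The sum of the family was 252 FPKM for WT against 189 FPKM for ΔM, and most of this difference was that of *Mapkapk2*.

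**Figure D3:**
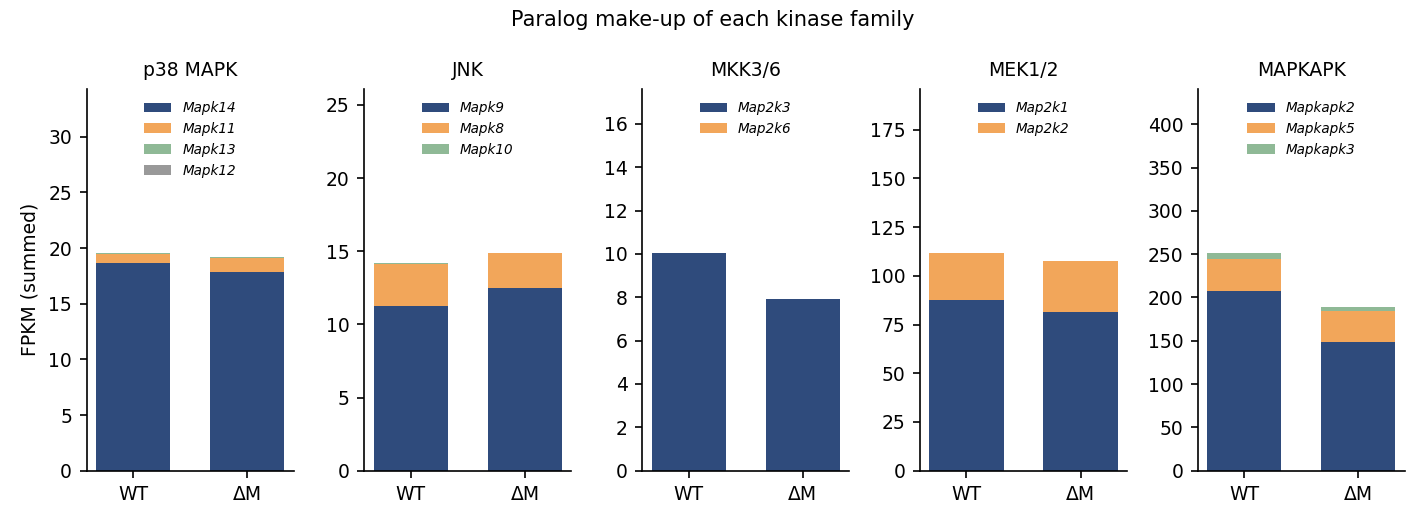
Summed FPKM of 5 kinase families in the WT and ΔM libraries, split by paralog, with a separate linear axis from 0 for each family. *Mapk14*, *Map2k3*, *Map2k1* and *Mapkapk2* make up most of their families, whereas *Mapk8* is the smaller part of its family, and the MAPKAPK sum is 252 FPKM for WT against 189 FPKM for ΔM.

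The rest of the cascades was described by lists. Of the 55 further genes of the p38, ERK, JNK, other MAPK and MAP3K lists, 37 passed the minimum. Of these, 0 were at least 1.5-fold higher in ΔM, against 11.2% of all genes and 4.82% of protein-coding genes. At least 1.5-fold lower were 2, against 7.51% of all genes and 5.36% of protein-coding genes. All 37 are protein-coding, and both counts are near the protein-coding background. Their median log2 ratio was 0.04. The p38 list had a median of -0.09 over 8 genes that passed, from -0.48 for *Mapkapk3* to 0.37 for *Mapk11*, and 4 of these genes are among the 9 kinases. The ERK list had a median of 0.04 over 16 genes and the JNK list one of 0.05 over 6 genes, and neither held a gene past 1.5-fold after adding 1 FPKM. With 0.1 FPKM added instead, *Mapk11* in the p38 list and *Braf* and *Mknk2* in the ERK list passed it, all higher in ΔM, with log2 ratios of 0.67, 0.65 and 0.66. At that setting 2602 of all 10765 genes passed 1.5-fold (1532 higher and 1070 lower in ΔM), against 2010 after adding 1 FPKM. After adding 1 FPKM the share was 18.7% of all genes but 10.2% of protein-coding genes. The protein-coding share was not calculated with 0.1 FPKM, so the count over all genes is not a like background for these kinases.

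Both partners of TPL2 examined were lower in ΔM, while the ratio of *Map3k8* itself was near 1. TPL2 is held in a complex by the NF-κB precursor p105, encoded by *Nfkb1*, and by ABIN-2, encoded by *Tnip2*. *Nfkb1* reached 97.3 FPKM in WT against 76.2 FPKM in ΔM, and its log2 ratio was -0.35. *Tnip2* reached 21.7 FPKM in WT against 15.4 FPKM in ΔM, and its log2 ratio was -0.46. Neither passed 1.5-fold.

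The 2 genes past 1.5-fold were in the MAP3K list, where 13 genes passed the minimum and the median was 0.01. *Map3k5* encodes ASK1, a stress-activated kinase upstream of p38 and JNK, and had 5.64 FPKM in WT against 2.99 FPKM in ΔM, with a log2 ratio of -0.73. *Map3k10* encodes a mixed-lineage kinase upstream of JNK and had 1.93 FPKM in WT against 0.73 FPKM in ΔM, with a log2 ratio of -0.76.

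**Figure D4:**
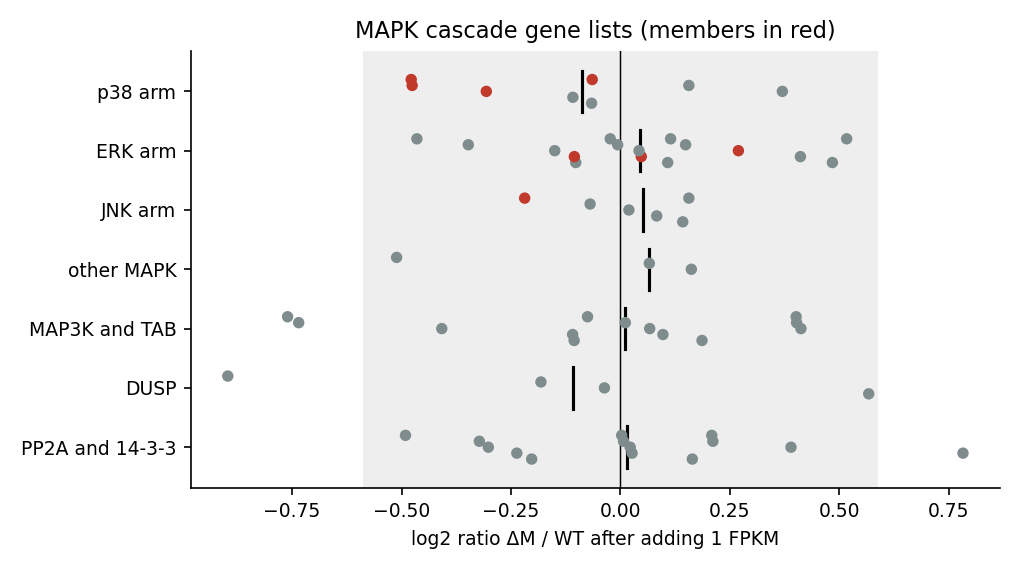
Log2 ratio of ΔM to WT after adding 1 FPKM for the genes of 7 lists that average 1 FPKM or more, with the 9 selected kinases in red where they pass, medians as black bars and grey shading up to 1.5-fold. The points past the shading are *Map3k5* and *Map3k10* (-0.73 and -0.76), *Dusp16* at -0.90 and *Ywhaz* at 0.78, and no red point lies outside it.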

How the data were processed

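The authors depleted rRNA, mapped the reads to mm9 with Segemehl, kept unique alignments and ran Cufflinks with Ensembl exon models. Each gene has 1 deposited FPKM per library, and a count model was therefore not applied. The WT and ΔM columns were assigned by name, and 1 gene without a number in ΔM was left out. GENCODE M1 (NCBIM37) held 37039 of the 37451 identifiers and gave gene types, strands and transcripts. No annotated exon of another gene overlaps those of the 9 kinases.

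Depth was searched over library sizes and fragment lengths (202 nt in both libraries) for the pair at which low FPKMs of single-transcript genes became whole. Of the values used, 93.2% in WT and 93.3% in ΔM lay within 0.15 of a whole fragment. By chance 30% would for a pair fixed in advance. The pair was chosen on these same values, so the shares are not an independent check of it. The search and the ratio intervals were tested on simulated data. Counting intervals are 95%, by Poisson for levels and Clopper-Pearson for ratios. Where a symbol had several identifiers, the widest locus was used. Alternatives covered the pseudocount, the minimum, scaling, centring, gene type and transcript length.

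The kinases and lists were chosen with earlier results of these data known. Named are the 9 kinases, their paralogs (1 is not reported here), *Tnip2*, *Nfkb1*, *Zfp36*, markers, and up to 3 genes per list and direction with the largest differences past 1.5-fold. Similarity of pattern to other genes was not calculated, because 2 values per gene define only a ratio. Protein sequences were not used here. Analyses used Python 3.11.15, numpy 2.4.6, pandas 2.3.3, scipy 1.17.1 and matplotlib 3.10.9.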

Additional observations from a re-analysis of the deposited data

How the results depend on the processing

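No paired analysis was possible because each genotype has a single library, which also leaves nothing to omit in turn. The 32 recalculated log2 ratios of single kinases, with pseudocounts of 0.1 or 0.5 FPKM, centring or scaling, kept their sign and stayed within the counting interval, and 0 kinases passed 1.5-fold or 2-fold under the 6 alternatives run for these counts. With 0.1 FPKM, genes past 1.5-fold numbered 1 in the p38 list (*Mapk11*), 2 in the ERK list (*Braf* and *Mknk2*), 1 in the list of other MAPKs (*Mapk7*) and 4 in the MAP3K list (*Map3k5*, *Map3k10*, *Map3k14* and *Tab3*). With 0.5 FPKM, *Mknk2* made 1 in the ERK list. Over all 10765 genes, the count past 1.5-fold rose from 2010 to 2602 with 0.1 FPKM and to 2284 with 0.5 FPKM. The count among protein-coding genes was not calculated with these pseudocounts. A minimum mean of 10 FPKM left 0 in the MAP3K list, since fewer genes were counted. *Braf*, *Mknk2*, *Mapk7*, *Map3k14* and *Tab3* are named here after their values were seen. Centring on 0.03 changed the sign of the median of the MAP3K list to -0.0172 and of the list of phosphatases and 14-3-3 proteins to -0.0137, by construction. All genes past 1.5-fold numbered 2010 (59.8% higher in ΔM), 890 with the minimum of 10 FPKM (68.8% higher) and 822 among protein-coding genes (47.3% higher). Those past 2-fold numbered 1002, 436 and 203. Depth limits the low kinases most, such as *Mapk8* on about 143 and 103 fragments with the median transcript length. With the longest transcript, the estimate for *Mapk8* was 600 and 431 fragments, so such counts depend on the length used.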

Other observations

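Proteins that act on phosphorylated TTP or on the kinases were also listed. The phosphatase PP2A removes the phosphates that MK2 places on TTP, and 14-3-3 proteins bind TTP that carries them. Of 15 genes for PP2A subunits and 14-3-3 proteins, 14 passed the minimum of 1 FPKM, with a median log2 ratio of 0.01, and 1 was at least 1.5-fold higher in ΔM, near the background of 11.2% of all genes and 4.82% of protein-coding genes. This was *Ywhaz* (14-3-3ζ), with 11.5 FPKM in WT against 20.6 FPKM in ΔM and a log2 ratio of 0.78. None was at least 1.5-fold lower. Of 10 genes for dual-specificity phosphatases, which inactivate MAP kinases, 4 passed the minimum. *Dusp16*, a phosphatase of JNK and p38, was the one at least 1.5-fold lower, against a background of 7.51% of all genes and 5.36% of protein-coding genes, with 18.8 FPKM in WT against 9.64 FPKM in ΔM and a log2 ratio of -0.90. *Dusp1*, the most abundant of the 4 and named after its values were seen, lay in the other direction, with 181 FPKM in WT against 269 FPKM in ΔM and a log2 ratio of 0.57, short of 1.5-fold.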
